A study of Mus musculus with 25 samples.

Results

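Ribosomal protein genes encode the protein components of the cytoplasmic ribosome. They were taken as the protein-coding genes of the GRCm38 annotation whose symbols follow the Rpl and Rps naming scheme, together with the stalk genes Rplp0, Rplp1 and Rplp2 and the small-subunit gene Rpsa. The rule found 84 genes among 21900 protein-coding genes, of which 52 belong to the large subunit and 32 to the small subunit by name. Its pattern also takes in paralogues such as Rpl3l and Rps27l, and it leaves out mitochondrial ribosomal proteins, ribosomal protein kinases and genes named only as pseudogenes.

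A ribosome reads messenger RNA on its small subunit and joins amino acids on its large subunit. The large and small subunit proteins are needed in matched amounts, and T cells raise their output of ribosomes when they leave rest and grow. IL-2, a growth factor of activated T cells, signals through a receptor that activates STAT5 and the growth pathways known to support protein synthesis.

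The measurements come from 6 HiChIP libraries of splenic CD8+ T cells from C57BL/6J mice, among 25 samples of the series, whose 19 ChIP-seq samples are not used here. HiChIP ligates DNA ends that lie near each other in the nucleus and enriches the ligated pieces with an antibody, here against H3K27ac, a histone mark of active promoters and enhancers. All 6 libraries came from cells kept in an activating culture for 2 days and then rested for 4 h, which either received IL-2 or did not (control). Each treatment was given to 3 genotypes: wild type (WT), a CRISPR mutant named for an intron deletion and a CRISPR mutant named for an upstream deletion, both in the super-enhancer of Il2ra, the gene of the IL-2 receptor alpha chain (intron-deleted and upstream-deleted cells below). Each genotype and treatment had 1 library, so no value has a replicate check. P-values of the IL-2 and deletion changes judge a mean change against a residual spread. That spread is how far the IL-2 change differs between genotypes, and it may be technical. The labels give neither coordinates for the deletions nor a number of animals, and they tie no IL-2 dose to a library.

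A loop is a pair of 1 kb bins that a deposited table lists with at least 20 contacts (read pairs joining both bins). The labels leave unstated if a further threshold was applied to such pairs, so an unlisted pair is not a measured 0. Each table is named as replicate 2, while the labels number no replicates, and no other run of these groups is used here. The libraries listed between 38879 and 94922 loops, with the fewest in the intron deletion control and the most in WT with IL-2, and the IL-2 library listed more than the control in each genotype. The targeted locus, Il2ra on chromosome 2 from 11642792 to 11693194, had 187 listed loops in the WT control and 286 in WT with IL-2. The intron deletion listed 12 and 39 there, and the upstream deletion 69 and 110, so both mutants lay below WT in either treatment. Of the CD8 T cell markers 8 of 9 were measured, with summed scaled contacts from 18504 to 23770 per library. No NK cell or erythroid marker had loops listed in all 6 libraries. For B cells 1 of 5 markers was measured, Cd79a, but 41.7% to 54.5% of its listed loops per library were also anchored at its neighbour Rps19. Of 5 myeloid markers Cd68 and Tyrobp were measured, and together they held 396.3 to 497.0 scaled contacts.

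Ribosomal protein genes were listed more often than other genes. A gene was counted where a listed bin overlapped its span extended by 1 kb on either side. At least 1 loop was listed in any library for 72 of the 84 genes (85.7%), against 35.8% of all protein-coding genes. Ribosomal protein genes are short, with a median span of 3.18 kb against 17.1 kb for all genes. Among genes no longer than the longest ribosomal protein gene, 31.8% had a listed loop. Loops listed in all 6 libraries were found for 55 ribosomal protein genes (65.5%), 35 of the large and 20 of the small subunit, against 19.1% of all genes. These 55 genes are the ones measured in the comparisons of contacts. Because all 55 had to be listed in the shallowest library, they are the members with the stronger signal, not a sample of all 84.

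No library listed a loop for 12 genes, among them Rpl5, Rpl7, Rpl10l, Rpl22l1, Rpl31, Rpl32l, Rpl37a, Rpl39l, Rps4x, Rps12 and Rps23. Rpl5 encodes a protein that binds the p53 regulator Mdm2 together with Rpl11. A further 17 genes were listed in some libraries but had no loop listed in all 6. They were Rpl9, Rpl13, Rpl21, Rpl22, Rpl26, Rpl32, Rpl34, Rpl36a, Rpl39, Rps3, Rps3a1, Rps20, Rps21, Rps27a, Rps27l, Rps29 and Rpsa. The number of ribosomal protein genes with a listed loop was 71 in the WT control and 72 with IL-2, 59 and 68 in intron-deleted cells, and 64 and 69 in upstream-deleted cells. It was lowest in the library with the fewest loops overall; the part of depth in this order was not tested.

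Paralogues of ribosomal protein genes split into listed and unlisted genes. Rpl10l and Rpl39l, known from the testis, and Rpl22l1, the paralogue of Rpl22, had no listed loop in any library. Rpl3l, the paralogue of Rpl3 known from heart and skeletal muscle, had 2 loops listed in all 6 libraries, with 62.3 to 91.6 scaled contacts. The bins of Rpl3l were shared with Msrb1, so these contacts cannot be assigned to 1 of the 2 genes. Rps27l, a p53-responsive paralogue of Rps27, had 13 and 17 listed loops in the control and IL-2 libraries of WT. It had 0 and 1 in intron-deleted cells and 5 and 3 in upstream-deleted cells. Rpl7l1, a paralogue of Rpl7, was among the genes with the most contacts, with 728 to 840 scaled contacts per library.

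The start bins of ribosomal protein genes were listed more often than those of other genes. An annotated start was given for 64 of the 84 genes, and the bin holding that start was listed in all 6 libraries for 38 of them (59.4%), against 14.1% of 17492 protein-coding genes. Both sets peaked at the start bin. Of the 142 listed bins of ribosomal protein genes, 48 (33.8%) held a gene start and 84 (59.2%) lay elsewhere in a gene. The next bin into the gene was listed for 27 (42.2%), against 8.26%. A second, lower group of listed bins lay 5 kb into or past the gene, where 14 genes (21.9%) had a listed bin, against 3.07% of all genes. Loops shorter than 5 kb are not listed, so the partners of a start bin can only lie at that distance or farther. Scaled coverage (all reads of the bin, divided by a library's scale factor) at the start bins had a median of 4014 for ribosomal protein genes and 2839 for all genes with a listed start bin.

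**Figure D1:**
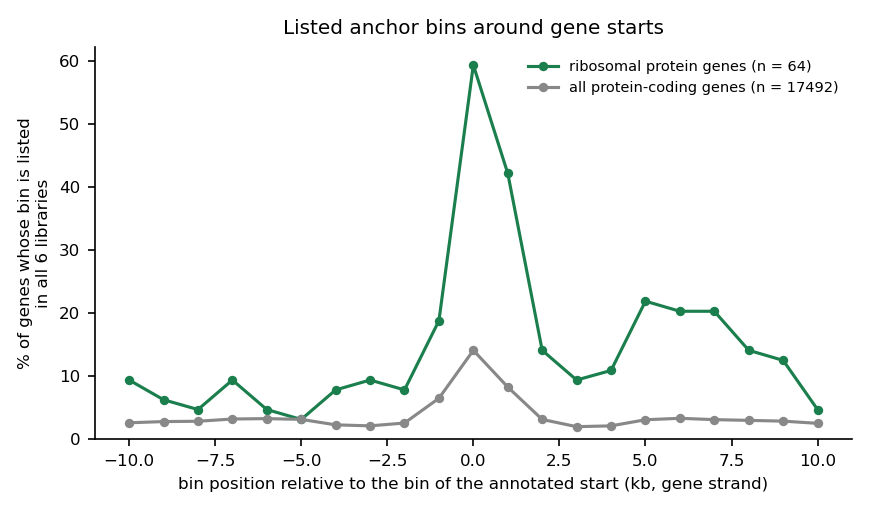
Share of genes (vertical axis, %) whose 1 kb bin at a given distance from the bin of the annotated start (horizontal axis, kb, positive into the gene) was listed in all 6 libraries. Green points are the 64 ribosomal protein genes with an annotated start and grey points all 17492 protein-coding genes with one. The green line peaks at 59.4% in the start bin, against 14.1% for all genes.

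Coverage of the best bin, the bin with the most reads among those of a gene listed in all 6 libraries, was available for 57 ribosomal protein genes. Its median scaled value was 3943 (range 1493 to 11961), against 2858 for 3768 features of all genes. The best bin held the gene's own start in 31 of the 44 genes with both a start and a listed bin. The highest best-bin coverage belonged to Rpl19, from 11046 to 12890 scaled reads across the 6 libraries. Rps19, the gene most often mutated in Diamond-Blackfan anaemia, followed with 8207 to 9822, and Rps14, known from the anaemia of the deleted long arm of human chromosome 5, with 7462 to 9256. The ranges of Rps19 and Rps14 overlapped, and the range of Rpl19 lay above both. Rplp0, Rps7, Rps18, Rps25, Rpl8 and Rpl27a were also among the 10 highest. The bins are of equal size, but a gene with more listed bins has more from which its best bin is taken. No correction was made for this.

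The starts of 6 genes whose contacts or loops are described below are printed here because the terminal pyrimidine run is the sequence feature for which ribosomal protein genes are best known. Their messenger RNAs begin with a stretch of C and T letters through which their translation follows growth signals. The sequences run from 60 bases before the annotated start to 20 bases from it, 5′ to 3′ on the gene's strand, from the RefSeq table of GRCm38.p6. Capitals mark the longest run of C and T that touches the 10 bases on either side of the start. Such a run need not lie in the messenger RNA: that of Rpl4 ends before the annotated start.
Rpl13a (chr7:45128726-45128805, minus strand): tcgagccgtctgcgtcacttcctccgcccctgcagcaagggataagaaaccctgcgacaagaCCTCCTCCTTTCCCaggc
Rpl35 (chr2:39005112-39005191, minus strand): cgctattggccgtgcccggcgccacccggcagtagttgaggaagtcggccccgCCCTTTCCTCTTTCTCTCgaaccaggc
Rpl4 (chr9:64173327-64173406, plus strand): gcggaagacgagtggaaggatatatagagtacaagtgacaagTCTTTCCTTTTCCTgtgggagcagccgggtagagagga
Rpl12 (chr2:32961652-32961731, plus strand): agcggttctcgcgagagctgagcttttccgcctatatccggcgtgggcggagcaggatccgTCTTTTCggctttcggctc
Rps24 (chr14:24490618-24490697, plus strand): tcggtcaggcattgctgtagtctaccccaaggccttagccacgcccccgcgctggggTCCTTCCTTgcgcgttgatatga
Rps9 (chr7:3703981-3704060, plus strand): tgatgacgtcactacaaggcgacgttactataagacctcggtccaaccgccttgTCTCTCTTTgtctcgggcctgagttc

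The marked run was 14 bases long in Rpl13a and Rpl4, 18 in Rpl35, 9 in Rps24 and Rps9 and 7 in Rpl12. A run of at least 8 such bases touched that window in 31 of 76 promoter entries of ribosomal protein genes (40.8%), against 14% of 21263 entries of all protein-coding genes. This measure was chosen after the letters were seen. The short core CTTTT, searched on the gene strand within 10 bases of the start, was found in 4 entries (5.26%), against 1.88% of all. The other motifs were searched on both strands from 250 bases before to 50 after the start. CCGGAAG, the core bound by ETS factors, was found in 27 of 76 entries (35.5%), against 11.6% of all entries. AAGATGG, the core of YY1 sites, stood in 15.8% against 6.24%. TATAAA stood in 10.5% against 12.6%, and the E-box CACGTG, the element bound by Myc, in 10.5% against 7.84%. TTCNNNGAA, the element bound by STAT factors, stood in 3 of 76 entries (3.95%), against 7.69% of all. A match is a string of letters, not a bound site, and a match of CCGGAAG and one of AAGATGG can share the letters AAG.

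Loops of ribosomal protein genes that were listed in all 6 libraries numbered 394 of 28033. They spanned a median of 12.5 kb, against 12 kb for all loops, up to 189 kb, and their mean contacts had a median of 44.0 against 41.3. Among the 366 partner bins, 28.7% held a gene start, 48.1% lay elsewhere in a gene and 23.2% in no gene. Over all 18580 listed bins these shares were 13.8%, 54.9% and 31.3%. The loop with the most contacts joined bins at both ends of Rpl19, 5 kb apart, with a mean of 284 contacts. Others among the 10 with the most contacts joined Rplp0 to Gcn1, Rpl4 to Snapc5 and Rpl37 to Card6. Loops between ribosomal protein genes were rare, and each joined genomic neighbours. Rpl3l and Rps2 were joined by 1 loop listed in all 6 libraries. Rpl19 with Rpl23 and Rpl41 with Rps26 were joined only by loops absent from at least 1 of the 6 tables.

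With IL-2, contacts of ribosomal protein genes were mostly higher than in the control libraries. Of the 55 measured genes, 9 rose and 0 fell at an adjusted p under 0.05 (edgeR's quasi-likelihood test, Benjamini-Hochberg over 3508 gene features). Over all features 3.25% rose and 2.34% fell. Of the 9 genes 5 belong to the large and 4 to the small subunit, and they included Rpl13a, Rpl35, Rpl4, Rpl12 and Rps24. The median log2 change of the 55 genes was 0.18, with quartiles of 0.08 and 0.26, against −0.00 with quartiles of −0.12 and 0.12 over all features. The fitted change was above 0 in 50 of 55 genes, against 49.2% of all features. Contacts were higher in each of the 3 genotypes for 30 genes, against 21.1% of features, and lower in each for 3. All 3 IL-2 libraries lay above all 3 controls for 17 of the 55, against 7.55% of features.

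Both subunits showed the same middle value, a median log2 change of 0.18 for the 35 large-subunit genes and 0.17 for the 20 small-subunit genes. The 30 genes with no other gene on their listed bins had a median of 0.21, with 5 called, and the 25 genes that share bins had 0.15, with 4 called. For these 25, and for features named for several genes (Rpl12 with Lrsam1, Rpl4 with Zwilch), contacts of neighbours cannot be told apart. The 17 genes with 1 or 2 loops had a median of 0.19, close to the 0.18 of the other 38.

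Calls of single genes depended on the tool and on the libraries. DESeq2 called 1 of the 55 genes, Rpl13a, and no gene was called without either WT library or without the upstream deletion IL-2 library. More genes were called without either intron deletion library, but the share of all features called in those fits was not taken. The median log2 change stayed between 0.13 and 0.24 over all 6 omissions. The IL-2 library was the deeper one in each genotype, with scale factors of 1.27 against 1.07 in WT, 1.09 against 0.782 in intron-deleted cells and 0.956 against 0.899 in upstream-deleted cells. Of the 8 measured CD8 T cell markers, Cd3e was called lower with IL-2, by 0.25 on the log2 scale (adjusted p 0.0466, edgeR). None was called higher, where 2.34% of all features fell. Cd3d and Cd3g changed by −0.25 and −0.27 (adjusted p 0.0608 and 0.0618, edgeR), and 3 of the 8 markers had a change above 0. The part of depth or cell makeup in the IL-2 change was not tested.

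Rpl13a (gene ID 22121, chr7:45125563-45128745) had the smallest p. Its listed bins are shared with 1 other ribosomal protein gene, so part of its contacts counts for both. Beyond the large subunit, its protein is known to silence the translation of a set of inflammatory messenger RNAs. It held 1465 scaled contacts in the WT control and 1954 with IL-2, 1368 and 1517 in intron-deleted cells, and 1244 and 1812 in upstream-deleted cells. The 3 IL-2 libraries all lay above the 3 controls, with the intron deletion IL-2 library closest to them. The fitted rise was 0.37 ± 0.068 on the log2 scale (SE), or 1.29-fold, with an adjusted p of 0.00963 by edgeR.

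Rpl35, whose protein sits at the mouth of the exit tunnel for the new protein chain, rose the most. Its scaled contacts were 121 and 178 in WT, 118 and 132 in intron-deleted cells, and 92.4 and 136 in upstream-deleted cells. The 3 IL-2 libraries of Rpl35 lay above the 3 controls, and its log2 rise was 0.44 ± 0.12 (adjusted p 0.0387, edgeR). With unlisted pairs of any library set to 19 contacts, the Rpl35 change was 0.22 (adjusted p 0.116, edgeR). Rps24, mutated in some families with Diamond-Blackfan anaemia, had 138 and 159 scaled contacts in WT, 95.9 and 132 in intron-deleted cells, and 94.6 and 156 in upstream-deleted cells. Its groups overlapped, because the WT control lay above the intron deletion IL-2 library, and the additive fit gave a rise of 0.43 ± 0.12 (adjusted p 0.0449, edgeR). With partners outside the gene region only, the Rps24 change was 0.29 and was not called.

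Rpl4 and Rpl12 rose by 0.33 ± 0.089 and 0.25 ± 0.069 on the log2 scale (adjusted p 0.0399 and 0.0449, edgeR), with no overlap between treatments in either. With loops of any library and unlisted pairs at 0, these changes were 0.19 and 0.019 (adjusted p 0.947 and 0.992, edgeR). Rpl4, which lines the exit tunnel, held 234 and 333 scaled contacts in WT, 249 and 265 in intron-deleted cells, and 225 and 289 in upstream-deleted cells. Rpl12, at the base of the ribosomal stalk, held 389 and 486, 372 and 413, and 368 and 444 in the same order.

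**Figure D2:**
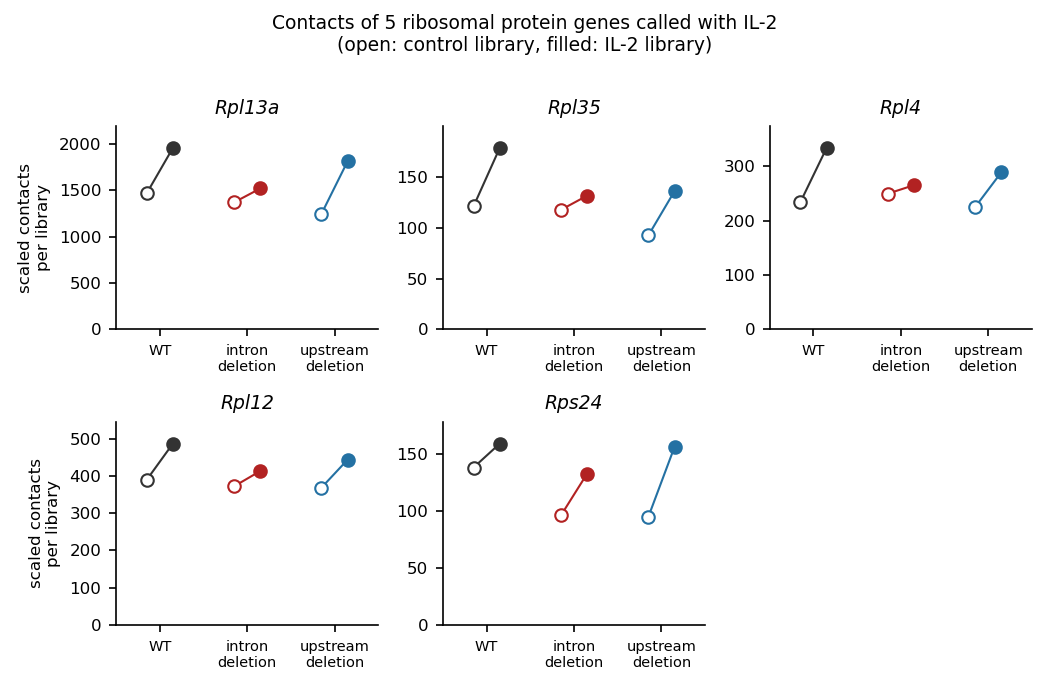
Scaled contacts (vertical axis, contacts divided by the library's scale factor) of 5 of the 9 ribosomal protein genes called with IL-2, by genotype (horizontal axis). Open points are control libraries and filled points IL-2 libraries, 1 library each, joined by a line; every line rises, and the lines of the intron deletion are flatter than both others in 4 of the 5 genes, Rps24 being the exception.

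Of the genes that were not called, 5 had a change below 0. The 3 most negative changes were those of Rpl24 at −0.23 ± 0.13, Rps15a at −0.17 ± 0.090 and Rps13 at −0.08 ± 0.14, with adjusted p-values of 0.356, 0.300 and 0.784 by edgeR. Rps15a was lower with IL-2 in each genotype, with 196 and 181 scaled contacts in WT, 188 and 164 in intron-deleted cells, and 210 and 182 in upstream-deleted cells. Rpl27a, the third most positive, changed by 0.41 ± 0.12 with an adjusted p of 0.058. Among the genes with the most contacts, Rps19, Rpl19 and Rps18 did not pass the test, whereas others, Rpl13a among them, did. Rps19, with 39 loops in all 6 libraries, held between 2502 and 2688 scaled contacts per library (log2 change 0.04 ± 0.054). Rpl19 held 1821 to 2008 (0.02 ± 0.054) and Rps18 1644 to 2052 (0.07 ± 0.054). The stalk genes Rplp0, Rplp1 and Rplp2 changed by 0.15, −0.00 and 0.12, with adjusted p-values of 0.209, 0.988 and 0.319.

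**Figure D3:**
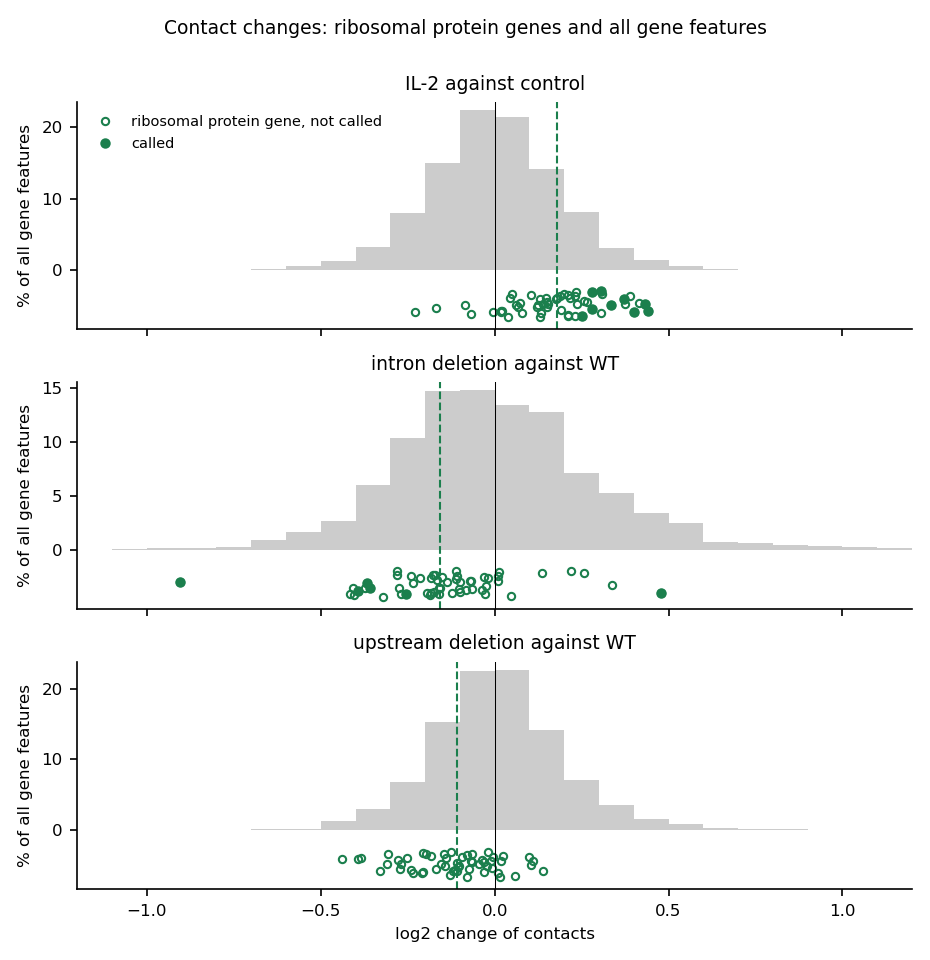
Log2 change of contacts (horizontal axis, drawn from −1.2 to 1.2) in the 3 comparisons. Grey bars give the percentage of all 3508 gene features per 0.1 of log2 change; green circles below them are the 55 ribosomal protein genes, filled where called, spread vertically at random, and the dashed green line is their median. The median lies at 0.18 with IL-2, at −0.16 in the intron deletion and at −0.11 in the upstream deletion.

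The median IL-2 change was smallest in the intron deletion. The median over the 55 genes was 0.20 in WT, 0.27 in the upstream deletion and 0.05 in the intron deletion, while the medians of all features lay between −0.02 and 0.01. It was above 0 in 46 genes in WT, 48 in the upstream deletion and 38 in the intron deletion. The response of the intron deletion minus that of the other 2 genotypes had a median of −0.18 on the log2 scale, against 0.01 over all features, and 44 of 55 differences were below 0, against 48.3% of features. The edgeR fit of this difference called 3 of the 55 genes smaller, among them Rps9 and Rpl13a, and 0 larger, where 1.37% of all features were called smaller and 3.11% larger. At an unadjusted p under 0.05 there were 18 genes, against 15.6% of features. The intron deletion has 1 library per treatment, so its response has no replicate. The spread in this fit comes from the difference between the WT and upstream deletion responses alone, with 1 residual degree of freedom. Its common dispersion was 0.00032 with 94.6 prior degrees of freedom, against 0.0041 with 13.6 and 0.0031 with 8.97 in the same fits for WT and for the upstream deletion. Those fits called 0 of 55 genes and 0.0% of features; at an unadjusted p under 0.05 they gave 1 and 3 genes, against 1.68% and 2.42% of features. The calls for the intron deletion therefore rest on that low estimate of spread and do not establish a difference between genotypes. No other tool was run on these fits.

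Rps9, which lies at the entry of messenger RNA into the small subunit, held 335 and 447 scaled contacts in WT, 305 and 399 in upstream-deleted cells, and 403 and 369 in intron-deleted cells. Its contacts were higher with IL-2 in 2 genotypes and lower with IL-2 in the intron deletion, where the control library was the highest of the 3 controls. The difference of responses was −0.53 ± 0.13 (adjusted p 0.00404, edgeR). For Rpl13a it was −0.32 ± 0.082 (adjusted p 0.00572, edgeR). Both adjusted p-values carry the limit on spread given above. The intron deletion control is the shallowest of the 6 libraries, and the part of its depth in these differences was not tested.

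**Figure D4:**
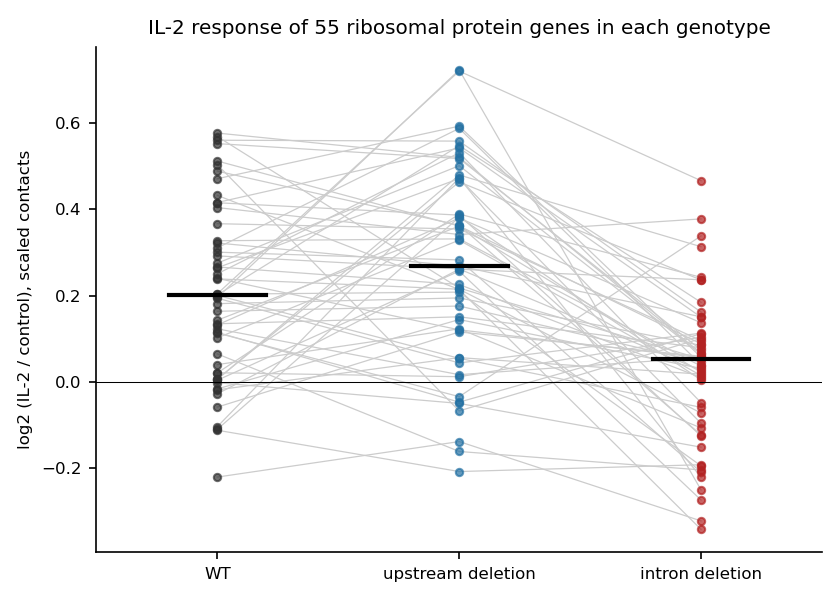
Log2 ratio of scaled contacts, IL-2 over control (vertical axis), of 55 ribosomal protein genes in each genotype (horizontal axis). Each point is 1 gene, grey lines join the same gene and the black bars are medians, at 0.20 in WT, 0.27 in the upstream deletion and 0.05 in the intron deletion.

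Single loops were tested for the IL-2 change as well. Of the 394 loops of ribosomal protein genes, 17 were higher with IL-2 and 0 lower, where 2.56% of all loops were higher and 0.731% lower. The 17 loops touched 10 ribosomal protein genes, and 7 of them joined the Rpl13a region to 2 bins inside Flt3l, the gene of a growth factor for dendritic cells and progenitors, at chr7:45131183-45136490. These 7 loops share 2 partner bins and are not separate observations. The remaining 10 are a share of the 394 loops close to the 2.56% of all loops. The strongest Flt3l loop joined chr7:45127001-45128000 in Rpl13a to chr7:45135001-45136000 in Flt3l, 8 kb away. It had 81 contacts in the WT control and 197 with IL-2, 63 and 88 in intron-deleted cells, and 61 and 140 in upstream-deleted cells. After scaling these were 76.4 and 160, 80.8 and 79.9, and 65.9 and 145. The scaled values were thus higher with IL-2 in WT and the upstream deletion, while the intron deletion libraries did not separate. The fitted change was 0.79 ± 0.14 (adjusted p 8.49e-06, edgeR).

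The Flt3l bins were set apart because they hold called loops, so a larger change there than in the other bins is partly fixed by that choice. Summed over the Flt3l bins, scaled contacts were 575 and 987 in WT (1.72-fold), 501 and 848 in upstream-deleted cells (1.69-fold) and 548 and 628 in intron-deleted cells (1.15-fold). Over the other 9 partner bins they were 818 and 945 (1.16-fold), 641 and 866 (1.35-fold) and 750 and 792 (1.05-fold). These sums are a description with no test.

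**Figure D5:**
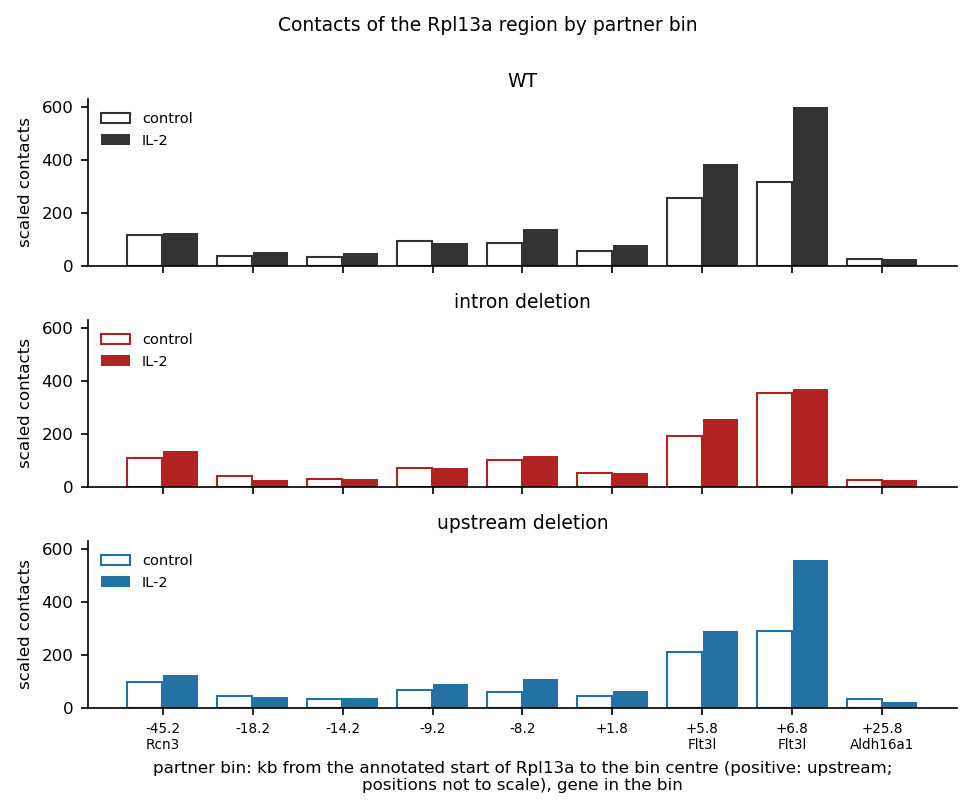
Scaled contacts (vertical axis) between the Rpl13a region and 9 of its partner bins in the 3 genotypes, with control libraries as open and IL-2 libraries as filled bars. Bins are ordered by distance from the annotated start to the bin centre (horizontal axis, kb, not to scale, positive upstream) and named for a gene they hold; the tallest bars are those of the farther Flt3l bin with IL-2 in WT (601) and in the upstream deletion (559), against 370 in the intron deletion.

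Of the 17 called loops, 10 had no Flt3l anchor. One joined Rplp0, the core of the ribosomal stalk, to the start bin of Gcn1, which encodes a sensor of stalled ribosomes. It had 93 and 131 unscaled contacts in WT, 37 and 90 in intron-deleted cells, and 41 and 88 in upstream-deleted cells. The IL-2 library was the deeper one in each genotype, and the WT control count lay above that of the intron deletion with IL-2. After scaling, the fitted log2 rise was 0.63 ± 0.15 (adjusted p 0.00407, edgeR). Other loops of the 10 were anchored at Rps2, Rps24, Rps25 (2 loops), Rpl28, Rpl13a, Rpl12 and Rps9. In 10 of the 17 all 3 IL-2 libraries lay above all 3 controls after scaling. The loops were chosen as called higher in these libraries, so this separation is partly fixed by that choice. The calls depended on the tool and on the libraries, and DESeq2 called 0 of the 394 loops. The median log2 change of these loops stayed between 0.10 and 0.19 over the omission of each library. By edgeR 67 loops had an unadjusted p under 0.05, but the share over all loops was not taken.

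Coverage, the number of reads at the listed bins whatever their partner, moved the same way by a smaller amount. The median log2 change with IL-2 was 0.15 over 57 measured genes, against −0.00 over 4157 features, and 54 of 57 were above 0, against 49.5% of features. None of the 57 passed the adjusted threshold, nor did any feature (0.0%). At an unadjusted p under 0.05 there were 40 of 57 genes, against 1659 of 4157 features. DESeq2 called 18 of the 57, all higher. The share of all features it called was not taken, so this count does not set these genes apart from others. Rpl35 had the most positive coverage change, 0.37 ± 0.082 (adjusted p 0.0749), followed by Rpl14 at 0.35 ± 0.091 (adjusted p 0.0749). Over the omission of each library the median log2 change stayed between 0.12 and 0.20, while the number of calls varied.

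In the intron deletion, contacts of ribosomal protein genes were mostly lower than in WT. On contacts 5 genes fell and 1 rose of 55, where 8.32% of all features fell and 8.95% rose, so the share of called genes (6 of 55) lay below the 17.3% of all features. The median log2 change was −0.16, against −0.02 for all features, and 46 of 55 changes were below 0, against 52.3% of features. DESeq2 called 1 of the 55 genes, and the share of all features it called was not taken. The edgeR calls varied with the omission of each library, and the median log2 change lay between −0.24 and −0.03. Over the same libraries 2 of 8 measured CD8 T cell markers were called higher on contacts, Cd8a by 0.55 and Cd8b1 by 0.43. None (0) was called lower, and Cd5 was at −0.15. Cd79a, the 1 measured B cell marker, was higher by 0.41 (adjusted p 0.00147, edgeR) on contacts and 0.69 on coverage. Coverage was also called higher for Cd8a (0.68), Cd8b1 (0.52), Lck (0.25), Tyrobp (0.36) and the regulatory T cell marker Ikzf2 (0.21). It was called lower for Cd68 (−0.31), where 20.6% of all features rose and 19.5% fell. The part of cell makeup in these changes was not tested.

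Rpl3, a protein near the peptidyl transferase centre, fell the most. Its feature, shared with Syngr1, held 102 and 138 scaled contacts in the control and IL-2 libraries of WT, 85.7 and 99.4 in upstream-deleted cells, and 74.1 and 58.5 in intron-deleted cells. Both intron deletion libraries lay below the other 4, and the change was −0.90 ± 0.18 (0.535-fold, adjusted p 0.00242, edgeR). Rpl3 coverage at its best bin was 3604 and 4635 scaled reads in WT, 2575 and 3508 in upstream-deleted cells, and 1545 and 1555 in intron-deleted cells. Rpl3 lies on chromosome 15, and Il2ra on chromosome 2. Rpl41, the shortest ribosomal protein, fell by 0.39 ± 0.089, from 537 and 593 in WT to 428 and 435. Rpl23a, a docking site at the exit tunnel, fell by 0.36 ± 0.082, from 613 and 737 to 525 and 529.

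The remaining falls were those of Rpl28, from 208 and 308 in WT to 198 and 206 (−0.37 ± 0.12, adjusted p 0.0465), and of Rpl11, from 473 and 468 to 390 and 398 (−0.25 ± 0.083, adjusted p 0.0465, both edgeR). For Rpl28 the WT control lay at the level of the intron deletion libraries, and only the WT IL-2 library stood apart. For Rpl11, which restrains Mdm2, both intron deletion libraries lay below both WT libraries. Rpl37 rose by 0.48 ± 0.083, from 374 and 359 in WT to 500 and 521, with an adjusted p of 0.00101 by edgeR. Its bins are shared with Card6, and the upstream deletion held 387 and 420.

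On coverage, 21 of 57 genes fell in the intron deletion and 0 rose, where 19.5% of all features fell and 20.6% rose. The largest falls were those of Rpl3, −1.31 ± 0.072, and Rps15a, −0.59 ± 0.043, with adjusted p-values of 0.000681 and 0.00125 (edgeR). The best bin of Rps15a held 2932 and 3112 scaled reads in WT, 2601 and 2763 in upstream-deleted cells, and 1822 and 1787 in intron-deleted cells, with no overlap between genotypes. The others included Rpl17, Rpl14, Rpl10a, Rpl23a and Rpl13a, between −0.39 and −0.34. Only Rpl3, Rpl23a and Rpl41 were called on both contacts and coverage. The calls on coverage varied with the omission of each library, and the median log2 change lay between −0.23 and −0.09.

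At single loops, 25 loops of ribosomal protein genes were lower in the intron deletion and 7 higher, where 5.03% of all loops were lower and 6.27% higher. The smallest p belonged to a loop of 9 kb from Rpl3 to Syngr1, with 53.7 and 71.6 scaled contacts in WT and 35.9 and 24.5 in intron-deleted cells. Around Rps19 the loops moved in both directions. The loop to Cd79a had 96.2 and 120 scaled contacts in WT and 68.0 and 70.8 in intron-deleted cells. A loop from Rps19 to Arhgef1 had 26.4 and 34.2 in WT and 61.6 and 59.9 in intron-deleted cells. The summed contacts of Rps19 did not show these opposite shifts (0.01 ± 0.066).

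In the upstream deletion, no ribosomal protein gene passed the test on contacts by edgeR or DESeq2, where edgeR called 0.513% of all features. At an unadjusted p under 0.05 there were 7 of 55, against 12.4% of features. The median log2 change was −0.11, against 0.00 for all features, and 46 of 55 changes were below 0, against 49.5% of features. On coverage edgeR called 0 of 57 and DESeq2 1, with a median of −0.11, where edgeR called 0.12% of features and 18 genes had an unadjusted p under 0.05, against 24.1% of features. One loop fell, where 0.0321% of all loops did, between Rps18 and a bin in no gene 46 kb away, with 44.3 and 56.1 scaled contacts in WT and 25.9 and 20.7 in upstream-deleted cells. Both deletions are compared with the same WT libraries, so their common direction is not independent.

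Other genes of ribosome production were set beside these values. Of 34 genes of ribosome biogenesis and RNA polymerase I, 13 were measured, and 3 rose with IL-2 and 0 fell, with a median log2 change of 0.28, where 3.25% of all features rose and 2.34% fell. They were Nop58, a core protein of small nucleolar RNPs, at 0.48 ± 0.13, Gnl3, encoding nucleostemin, at 0.36 ± 0.096, and Bysl, a factor of small-subunit assembly, at 0.33 ± 0.062. Bysl held 739 and 928 scaled contacts in WT, 836 and 971 in intron-deleted cells, and 745 and 1010 in upstream-deleted cells, with no overlap between treatments. Of 25 translation factors 13 were measured and 1 rose, Eif5a, at 0.37 ± 0.058, with a median of 0.26. Eif5a held 1102 and 1403 in WT, 1119 and 1368 in intron-deleted cells, and 978 and 1349 in upstream-deleted cells. The intron deletion IL-2 library of Eif5a lay between the other IL-2 libraries.

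Mitochondrial ribosomal proteins, which build the ribosome of mitochondria, and growth regulators stood nearer to the background. Of 78 mitochondrial ribosomal protein genes 21 were measured, and 0 passed the test with IL-2, with a median of 0.05 and 14 above 0. At an unadjusted p under 0.05 there were 5 of 21, against 737 of 3508 features. Of 12 growth regulators, among them Myc and genes of the mTOR pathway, 8 were measured and 0 passed, with a median of −0.02 and 2 at an unadjusted p under 0.05. Myc changed by 0.16 ± 0.062 (adjusted p 0.156, edgeR). Fau, which encodes a ribosomal protein fused to a ubiquitin-like domain, changed by 0.14 ± 0.061 with IL-2 and fell by 0.43 in the intron deletion. The intron deletion was also lower for Wdr43, Nob1 and Rheb, by 0.60, 0.57 and 0.37 on the log2 scale. The feature of Nob1 is shared with Wwp2, so their contacts cannot be told apart. These were 2 of 13 measured biogenesis genes and 1 of 8 growth regulators, where 17.3% of all features were called. The mitochondrial list had 2 genes higher and 2 lower of 21, near that share. How these lists differ from the ribosomal protein genes was not tested.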

How the data were processed

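H3K27ac HiChIP was analysed in 6 libraries. The submitters' processing notes name CASAVA, Bowtie2 2.2.6 and HiC-Pro and the builds mm10 and GRCm38. The deposited values are counts: each deposited row gives a pair of 1 kb bins, its contact count and the read count (coverage) of both bins, in the layout of FitHiChIP. No row held fewer than 20 contacts or spanned under 5 kb, and the columns for p-values and q-values held nothing. How reads with several matches, such as those shared with processed pseudogenes of ribosomal protein genes were treated is not stated in the labels.

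Contacts of a gene were summed over the 28033 loops listed in all 6 libraries with an anchor in the gene's span extended by 1 kb; genes with identical loops form 1 feature. Coverage was summed over 18580 bins listed in all 6. Both were tested with edgeR 4.0.16 (R 4.3.3; quasi-likelihood, TMM scaling) in 1 additive model of genotype plus treatment across the 6 libraries (2 residual degrees of freedom) and Benjamini-Hochberg adjustment over all features, at 0.05. Scaled values are divided by the library's effective size relative to the mean; scale factors ranged from 0.782 to 1.27 for contacts. A further fit set the IL-2 response of 1 genotype against the others. The SE of a log2 change was derived from the F statistic. The procedure was tested on simulated data. DESeq2 1.42.0, total scaling, other gene regions, other treatments of unlisted loops and the omission of each library were alternatives.

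Named genes were, apart from some that are not reported here, all those called on contacts, the 10 with the most contacts, the 10 with the highest best-bin coverage, the 3 most positive and 3 most negative IL-2 changes, Rpl13a and the paralogues; named loops were the 10 with the most contacts and up to 10 called loops with the smallest p. Rpl14, Rpl17, Rpl10a, Rps2, Rps9 and some loops were named after their values were seen. The members, lists and motifs were chosen with earlier results of these data known.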

Additional observations from a re-analysis of the deposited data

Results flagged for a closer look

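The IL-2 response of contacts in the intron deletion was called different from that of the other 2 genotypes at ribosomal protein genes including Rps9 and Rpl13a, by an interaction term in edgeR. The intron deletion has 1 library per treatment, and the spread in this fit came from the other 2 genotypes with a common dispersion of 0.00032, against 0.0041 and 0.0031 in the same fits for WT and the upstream deletion, which called 0 genes. The calls therefore do not establish a difference between genotypes. The log2 difference of responses was −0.53 for Rps9 and −0.32 for Rpl13a. In the intron deletion itself the IL-2 change was −0.13 for Rps9 and 0.15 for Rpl13a, against 0.42 and 0.42 in WT and 0.39 and 0.54 in the upstream deletion. Whether the shallow intron deletion control library has a part in these differences was not tested.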

How the results depend on the processing

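The additive fit pairs the control and IL-2 library of each genotype, and the labels give no replicate numbers for another block. Each genotype and treatment has 1 library, so each omission leaves 1 arm of a genotype empty. The counts below stand without the share of all features called in the same fit. They describe only how far the calls vary. Of the 9 genes called on contacts with IL-2, DESeq2 left 1, scaling by totals without TMM 4, a mean of at least 100 contacts 1, gene spans without extension 1, unlisted loops at 0 none (0), and treatment alone without genotype 0; omissions gave 0 to 27. The median log2 change stayed above 0 in each of these settings. For the intron deletion on contacts (6 calls), DESeq2 gave 1, a mean of at least 100 gave 3, genotype alone 2, unlisted loops at 0 gave 2 and at 19 gave 12; omissions gave 0 to 25. For the upstream deletion on contacts (0 calls) omissions gave 0 to 5. On coverage, DESeq2 called 18 with IL-2 and 1 in the upstream deletion, and omissions gave 0 to 52 and 0 to 37. Coverage in the intron deletion (21 calls) gave 5 with genotype alone and 2 to 48 under omissions. For loops with IL-2 (17 calls), DESeq2 and treatment alone gave 0, and omissions 0 to 32. A further setting, chosen after seeing the data, used only the 3 bins around annotated starts and called 1 gene with IL-2 and 2 in the intron deletion on contacts. Genes that did not pass the test with IL-2 changed sign as follows. With unlisted loops at 0, the log2 change was −0.25 for Rpl37, −0.21 for Rps19, −0.20 for Rpl19, −0.044 for Rps18, −0.035 for Rpl8 and 0.14 for Rpl24. With partners outside the gene region only, Rpl19 was at −0.0048; omissions moved it from −0.0009 (upstream deletion with IL-2 left out) to 0.0367. Omissions moved Rpl3 from −0.0247 to 0.3575, with −0.0243 as the other negative value, both when a WT library was left out, as for Rps14 at −0.0003. Fits without 1 library keep the remaining library of that genotype but cannot use it for the IL-2 change. Counts near the minimum of 20 are cut off below it, so changes of loops near it cannot be measured at this depth.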
